A study of Sus scrofa with 23 samples.

Results

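The mitochondrial ribosome and the mitochondrial protein translocases were followed through 76 genes of the pig, of 6765 genes that a porcine Affymetrix expression array named by a single symbol. Members were the genes whose symbol on the array starts with MRPL, MRPS, TIMM or TOMM, which gave 36 proteins named for the large ribosomal subunit (MRPL), 22 named for the small subunit (MRPS), 11 translocases of the inner membrane (TIMM) and 7 of the outer membrane (TOMM). Of a gene's probe sets the brightest was used, judged by the mean signal of the 23 samples. All 76 lay above the median probe set of the array, at the 60.9 to 99.0 percentile of the means. The 76 genes had 99 probe sets, and 17 genes had several. Of the 76 genes, 75 were found in RefSeq by their Entrez identifier, and MRPS25 is given under the name on the array.

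Mitochondria hold their own ribosome, which makes the few proteins encoded by mitochondrial DNA, all of them subunits of the respiratory chain and the ATP synthase. Every protein of this ribosome is encoded in the nucleus, made in the cytosol and carried into the organelle. Import starts at the TOM complex of the outer membrane, where receptors bind the precursor and a channel lets it through. Small TIM proteins then escort membrane proteins across the intermembrane space. The TIM23 complex passes precursors with a presequence to the matrix, and the TIM22 complex inserts carrier proteins into the inner membrane. In mammals, skeletal muscle is known to gain mitochondria around birth.

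The samples came from offspring of German Landrace gilts that had all received a gestational low-protein diet, so every group carries this diet and none tests it. The groups were 94 dpc (5 samples, before birth), 1 dpn, 28 dpn and 188 dpn (6 samples each), read here as days post conception and days post natum. Offspring of 3 gilts were taken per stage and the dam of a sample is not labelled, so samples of a stage may share a dam, and p-values that treat them as independent may be too small. The tissue given for each sample is liver, whereas the series title speaks of muscle. The 15 measured skeletal muscle markers had a median percentile of 99.08 to 99.84 within a sample, and the 19 hepatocyte markers 13.83 to 88.46. The results are therefore assigned to no tissue. A signal is the deposited linear brightness of a probe set. A log2 change is the difference between 2 stage means of log2(signal + 16), given with its SE. A gene was called at an adjusted p under 0.05 in limma, with Benjamini-Hochberg adjustment over 23999 probe sets. The added 16 draws the fold of dim probe sets toward 1. Levels are compared only within a probe set, never between genes.

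Replicates 2, 4 and 5 of 1 dpn stood apart in the GAPDH control, where the signal near the 5' end over that near the 3' end was 0.0868 to 0.148 in them and 1.09 to 1.29 in the other 20 samples. The control compares the signal of probes near either end of the transcript. The EF1A ratio was 0.101 to 0.125 in these 3 samples and at least 0.458 in the others, whereas the actin ratio did not separate them, at 1.01, 0.817 and 0.985 in the 3 and 1.21, 1.2 and 0.999 in the other samples of 1 dpn. Other controls separated stages too. The actin ratio was 0.82 to 1.21 at 94 dpc and 1 dpn and 1.29 to 1.61 at 28 and 188 dpn, the bioD signal was at least 24390 at 1 dpn and at most 15730 at 94 dpc, and the DapX ratio was at least 0.264 at 188 dpn and at most 0.0977 at 28 dpn. Age cannot be told apart from what these controls reflect. Results with 1 dpn are given with all 6 samples. Counts and medians of the members, and the values of some genes, are also given without the 3 samples of low GAPDH ratio. That setting was chosen after seeing the data. All other values, including those of further gene groups and lists, stand with all 6 samples only.

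Over the 4 stages, the members were most often lowest before birth and most often highest at 1 dpn. The lowest of the 4 stage means fell at 94 dpc for 46 of 76 members (60.5%), against 28.7% of all genes with 1 symbol. The highest fell at 1 dpn for 36 members (47.4%), at 28 dpn for 20 and at 188 dpn for 17, against 23.7%, 14.65% and 26.15% of all genes. At 94 dpc, 3 members had their highest mean, against 35.5% of all genes. A highest mean at 1 dpn was not particular to the members. It was found for 63.1% of 65 respiratory chain and ATP synthase genes and 53.45% of 58 cytosolic ribosomal protein genes. The lowest mean fell at 94 dpc for 83.1% and 27.6% of these groups. These shares are descriptions, since a stage mean counts here whether or not it passed a test.

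**Figure D1:**
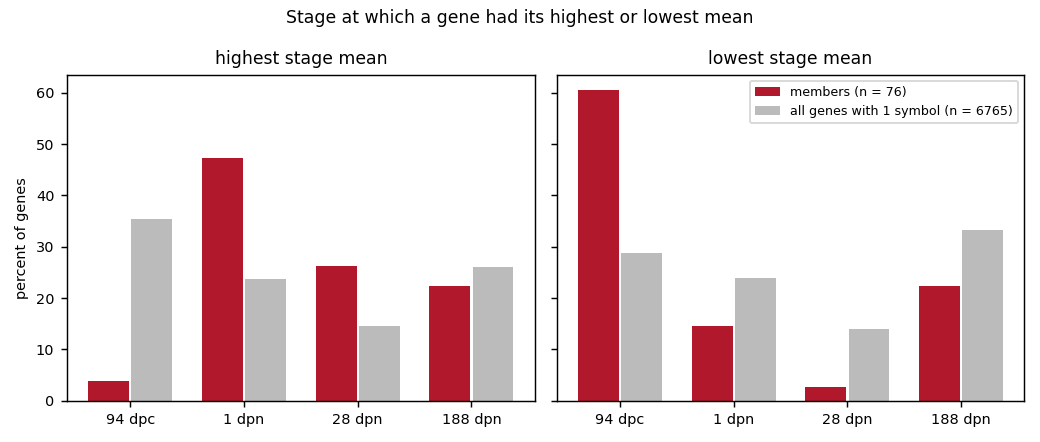
Share of genes (percent, vertical axis) whose highest (left) or lowest (right) stage mean of log2(signal + 16) fell at each of the 4 stages, for the 76 members (red) and for all 6765 genes with 1 symbol (grey). The red bar for the lowest mean at 94 dpc stands at 60.5%, against 28.7% for all genes.

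The median over all members in each sample, on the scale of log2(signal + 16), lay from 10.25 to 10.68 at 94 dpc and from 10.24 to 11.40 at 1 dpn. It lay from 10.78 to 10.94 at 28 dpn and from 10.69 to 10.83 at 188 dpn. The 1 dpn range was the widest and held both the lowest and the highest sample of the study. The 1 dpn samples of low GAPDH ratio had medians of 10.24, 10.86 and 10.61, and the other 1 dpn samples 11.27, 11.40 and 10.97, which do not overlap. The median SD of a member within a stage was 0.241 at 94 dpc and 0.436 at 1 dpn, then 0.18 at 28 dpn and 0.21 at 188 dpn, and 0.304 at 1 dpn without the 3 samples. The fit takes 1 spread per probe set for all stages, so errors of comparisons with 1 dpn may be too small and those of 188 dpn with 28 dpn too large.

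**Figure D2:**
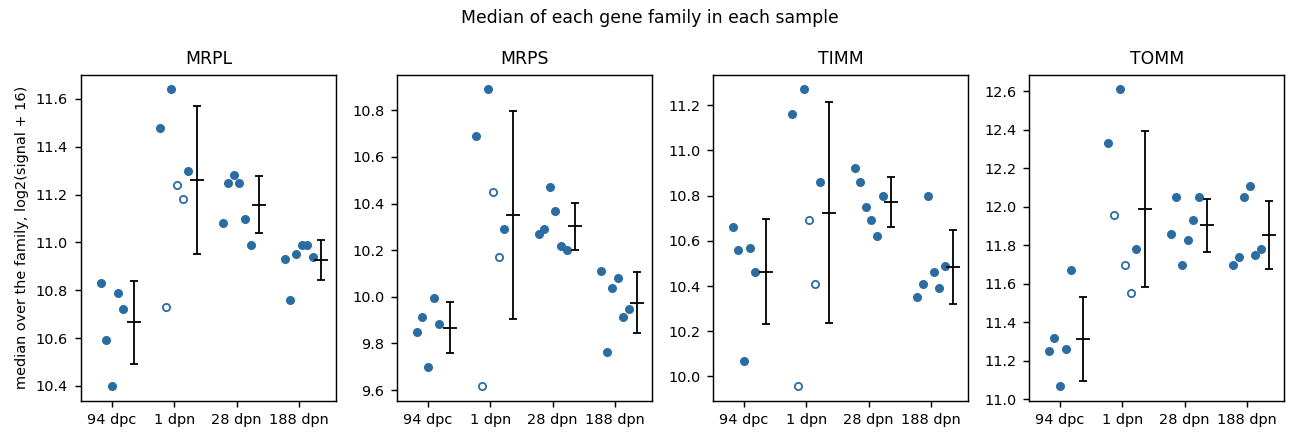
Median over the genes of each family in every sample, log2(signal + 16), by stage; open circles are the 1 dpn samples of low GAPDH ratio, and the black bar is the mean ± SD of the samples. The MRPL medians lie between 10.40 and 10.83 at 94 dpc and reach 11.64 at 1 dpn.

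The comparison of 1 dpn with 94 dpc covers birth. Members of all 4 families were higher at 1 dpn: 35 of 76 rose, 1 fell and 40 did not pass. Among all genes with 1 symbol, 13.7% rose and 19.4% fell. The median log2 change of the members was 0.452, against -0.0573 for all genes. All 6 samples of 1 dpn lay above all 5 of 94 dpc for 27 members and below them for 0, against 8.01% and 11.8% of all genes. By family, 19 of 36 MRPL genes, 8 of 22 MRPS genes, 5 of 11 TIMM genes and 3 of 7 TOMM genes rose, and the gene that fell was TOMM34. In bulk tissue, fewer cells of a type and less RNA per cell cannot be told apart. Markers of other cells differed as well: 8 of 9 fibroblast and matrix markers fell, with a summed signal of 15620 to 39260 at 1 dpn and 65230 to 87660 at 94 dpc, and 7 of 9 endothelial markers fell, with sums of 4012 to 6086 at 1 dpn and 9961 to 16600 at 94 dpc. Of 15 muscle markers, 3 rose and 1 fell, with sums of 441400 to 814300 at 1 dpn and 397100 to 469600 at 94 dpc. With arrays centred on their median, 11 muscle markers rose and 0 fell, given without the shares of all genes at that setting. The part of all these markers in the result was not tested.

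**Figure D3:**
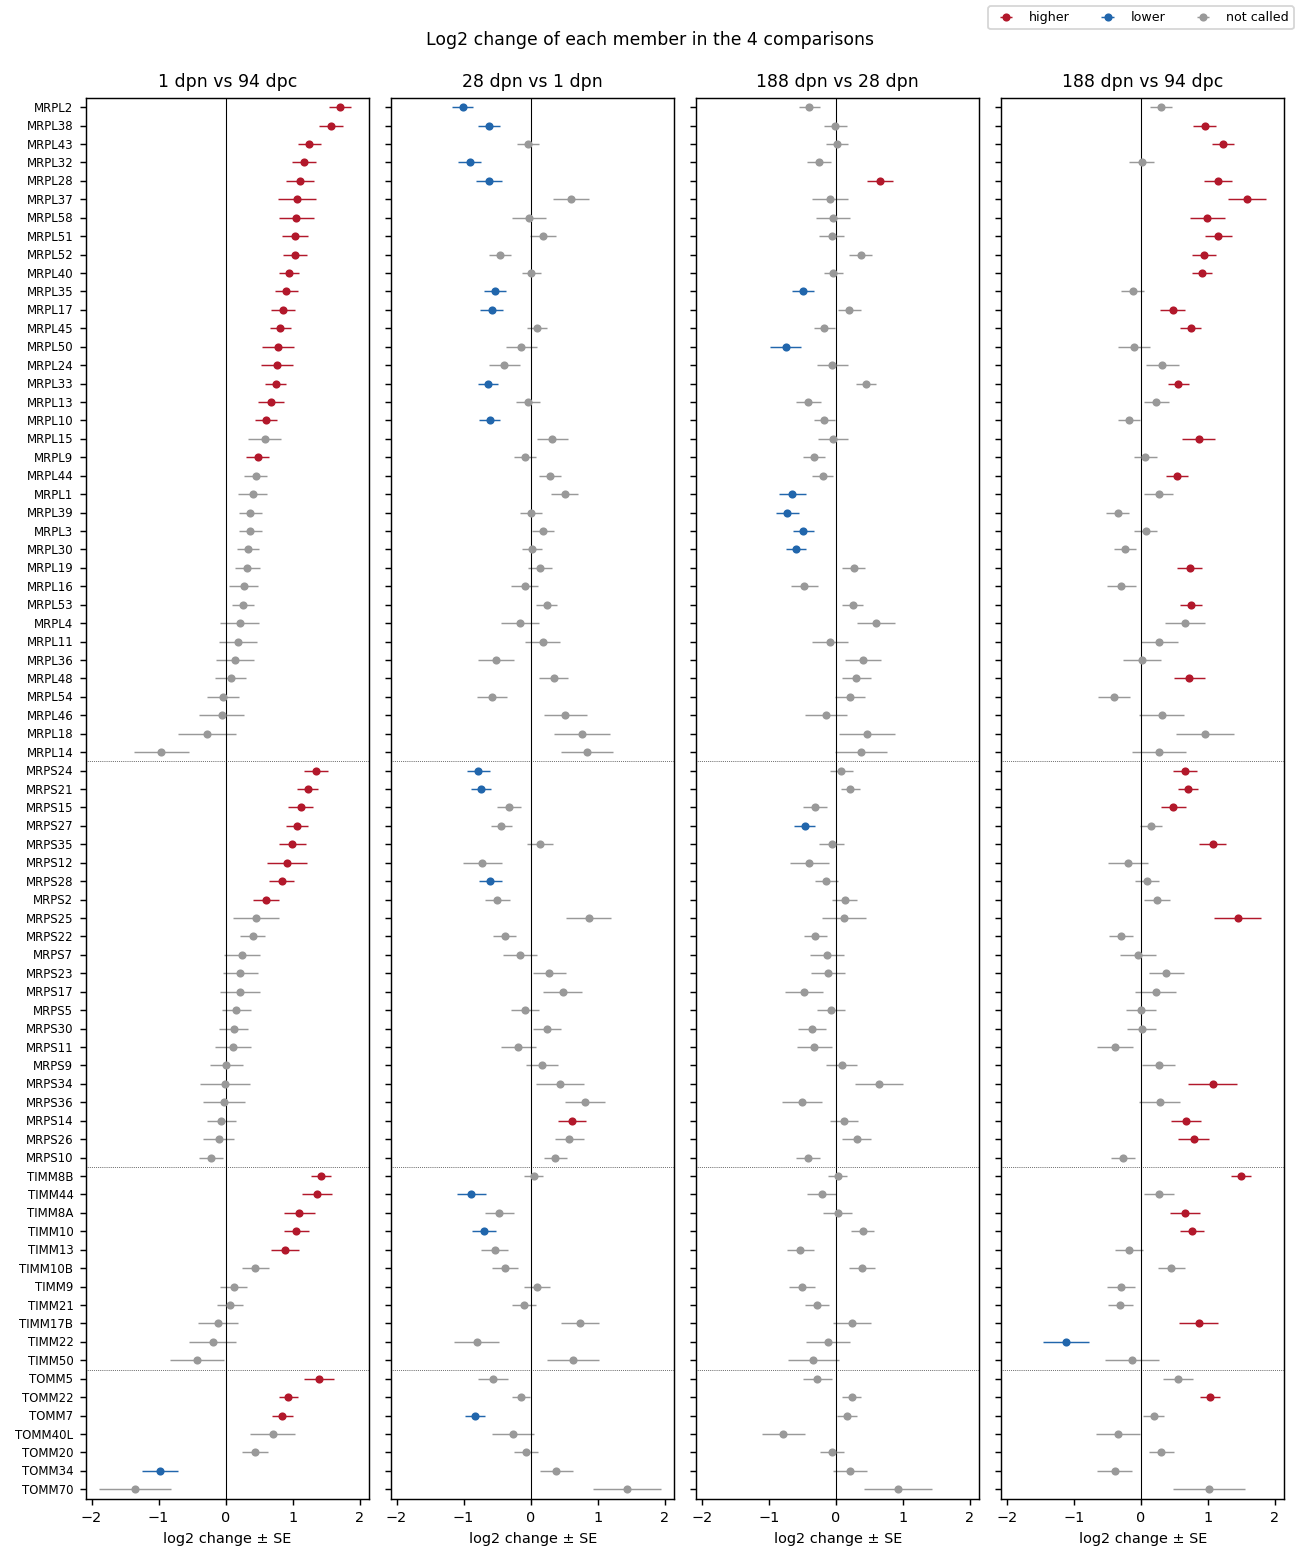
Log2 change ± SE (horizontal axis) of each of the 76 members in the 4 comparisons, later stage minus earlier, ordered by family (dotted lines) and by the change of 1 dpn from 94 dpc; red is called higher, blue called lower, grey not called. Red points number 35 in the first panel and 29 in the last, and blue points 14 in the second.

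The largest change belonged to MRPL2, the counterpart of a bacterial protein next to the peptidyl transferase centre. Its signal was 4088 to 6779.8 (median 5282) at 1 dpn, against 2022, 1725, 1336, 1408 and 1784 at 94 dpc. Every 1 dpn sample lay above every 94 dpc sample (1.71 ± 0.16 on the log2 scale, 3.27-fold higher, adjusted p = 9.6e-08). MRPL38, a large-subunit protein without a bacterial counterpart, had 1896 to 2931 (median 2494) at 1 dpn and 1265, 816, 633, 797 and 702 at 94 dpc. Here too the stages did not overlap (1.57 ± 0.17 on the log2 scale, 2.97-fold higher, adjusted p = 7.3e-07). MRPL43, another protein that the mitochondrial ribosome gained, had 4223 to 6857 (median 5692) at 1 dpn and 2440.5, 2169, 1746, 3103 and 2375 at 94 dpc. The lowest newborn sample was still above the highest fetal one (1.25 ± 0.17 on the log2 scale, 2.38-fold higher, adjusted p = 7.7e-06). MRPL32, which in yeast and mouse matures through the m-AAA protease before it joins the ribosome, had 1082 to 1697 (median 1268) at 1 dpn and 691, 669, 562, 495 and 523 at 94 dpc, again without overlap (1.17 ± 0.18 on the log2 scale, 2.25-fold higher, adjusted p = 4.6e-05). The other large-subunit genes that rose ran down to MRPL9, at 0.48 ± 0.17 (adjusted p = 0.042), and included MRPL45, which binds the ribosome to the inner membrane (0.82 ± 0.16, adjusted p = 0.00054), and MRPL58, a peptidyl-tRNA hydrolase that frees stalled ribosomes (1.05 ± 0.26, adjusted p = 0.0042).

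Among the small-subunit genes, MRPS24 and MRPS21 led. MRPS24, the counterpart of a bacterial protein at the mRNA entry site, had 6107 to 9347 (median 7686) at 1 dpn and 3797, 2669.6, 2097, 3268 and 3302 at 94 dpc. The stages did not overlap (1.35 ± 0.18 on the log2 scale, 2.56-fold higher, adjusted p = 7e-06). MRPS21, the brightest probe set of its family, had 10704 to 15467 (median 13639) at 1 dpn and 5479, 5398, 4729, 6016 and 6396 at 94 dpc, and the newborn samples were all above the fetal ones (1.22 ± 0.15 on the log2 scale, 2.33-fold higher, adjusted p = 3.6e-06). MRPS15 (1.12 ± 0.18, adjusted p = 7.8e-05), MRPS27, a pentatricopeptide repeat protein (1.06 ± 0.16, adjusted p = 3.7e-05), MRPS35 (0.99 ± 0.20, adjusted p = 0.00067), MRPS12, which lies at the decoding centre (0.92 ± 0.30, adjusted p = 0.026), MRPS28 (0.83 ± 0.18, adjusted p = 0.0013) and MRPS2 (0.60 ± 0.20, adjusted p = 0.025) rose as well. The remaining 14 small-subunit genes did not pass and lay between -0.22 ± 0.18 for MRPS10 and 0.45 ± 0.35 for MRPS25.

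In the import machinery, 4 of the 6 small TIM chaperones of the intermembrane space rose. TIMM8B had 18160 to 23850 (median 21642) at 1 dpn, against 8238, 7669, 6757, 8605 and 8423 at 94 dpc. The newborn samples all stood far above the fetal ones (1.42 ± 0.15 on the log2 scale, 2.67-fold higher, adjusted p = 3.2e-07). TIMM10, which works in a ring with TIMM9, had 3662 to 6668 (median 4745) at 1 dpn and 3061, 2411, 1536, 2307 and 2731 at 94 dpc, without overlap (1.06 ± 0.18 on the log2 scale, 2.08-fold higher, adjusted p = 0.00015). TIMM8A, mutated in human deafness-dystonia syndrome, had 979 to 2978 (median 1483) at 1 dpn and 562, 666, 627, 729 and 859 at 94 dpc (1.10 ± 0.23 on the log2 scale, 2.14-fold higher, adjusted p = 0.00089). TIMM13, the partner of TIMM8A, had 3607 to 9618 (median 6582) at 1 dpn and 3478, 3243, 2721, 3883 and 3465 at 94 dpc. These 2 ranges met in their tails (0.89 ± 0.21 on the log2 scale, 1.85-fold higher, adjusted p = 0.0025). TIMM9 (0.12 ± 0.20, adjusted p = 0.72) and TIMM10B (0.44 ± 0.20, adjusted p = 0.11) did not pass.

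Of the 4 measured genes of the TIM23 route, TIMM44 rose with all 6 samples of 1 dpn. TIMM44 ties the matrix chaperone motor to the import channel, and it had 465 to 1029.5 (median 821) at 1 dpn and 302, 395, 192, 293 and 256 at 94 dpc, without overlap (1.37 ± 0.23 on the log2 scale, 2.58-fold higher, adjusted p = 8.6e-05). TIMM50, the receptor of the complex, had 393 to 2758 (median 1313) at 1 dpn and 1783, 1491, 1056, 1499.7 and 1350.3 at 94 dpc. Its newborn samples fell on both sides of the fetal range (-0.43 ± 0.40, adjusted p = 0.48). The second TIMM50 probe set, with a mean signal of 1258 beside 1455, had the opposite sign without a call (0.56, adjusted p = 0.067). The channel subunit TIMM17B (-0.11 ± 0.30, adjusted p = 0.82), TIMM21, which contacts the TOM complex (0.06 ± 0.19, adjusted p = 0.84), and TIMM22, the channel of the carrier route (-0.20 ± 0.35, adjusted p = 0.73), did not pass. For TIMM17B, the 1 dpn samples of low GAPDH ratio had 517, 678 and 540. Its other 1 dpn samples had 2100, 1518 and 1839, against 928 to 1444 at 94 dpc.

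At the outer membrane, the central receptor TOMM22 and the small subunits TOMM5 and TOMM7 rose. TOMM22 had 6236 to 8658 (median 7268) at 1 dpn and 3759, 3830.5, 3469, 3704 and 4094 at 94 dpc. The lowest newborn value was well above the highest fetal one (0.93 ± 0.15 on the log2 scale, 1.91-fold higher, adjusted p = 4.5e-05). TOMM5 had 3499.5 to 11336 (median 7151) at 1 dpn and 2420.3, 2539, 2135, 2437 and 3251 at 94 dpc, without overlap (1.39 ± 0.23 on the log2 scale, 2.62-fold higher, adjusted p = 8.5e-05). TOMM7 had 14380 to 19979 (median 18703) at 1 dpn and 10234, 9038, 8012, 12785 and 10618 at 94 dpc, also without overlap (0.85 ± 0.16 on the log2 scale, 1.8-fold higher, adjusted p = 0.00028). TOMM7 lost its call under quantile normalization (adjusted p = 0.0808). TOMM34, a cytosolic co-chaperone that the symbol places here although it is no subunit of the TOM complex, had 108 to 308 (median 195) at 1 dpn and 523, 458, 372, 264 and 402 at 94 dpc. It fell with an overlap (-0.98 ± 0.26 on the log2 scale, 1.97-fold lower, adjusted p = 0.0073), and lost its call under quantile normalization (adjusted p = 0.0728) and with arrays centred on their median (adjusted p = 0.0536). The presequence receptor TOMM20 (0.44 ± 0.19, adjusted p = 0.092) and TOMM40L, a paralogue of the channel protein (0.70 ± 0.33, adjusted p = 0.13), did not pass. For TOMM20, the 1 dpn samples of low GAPDH ratio had 3967, 3309 and 2982. Its other 1 dpn samples had 5639, 6245 and 4072, against 2651 to 3458 at 94 dpc.

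**Figure D4:**
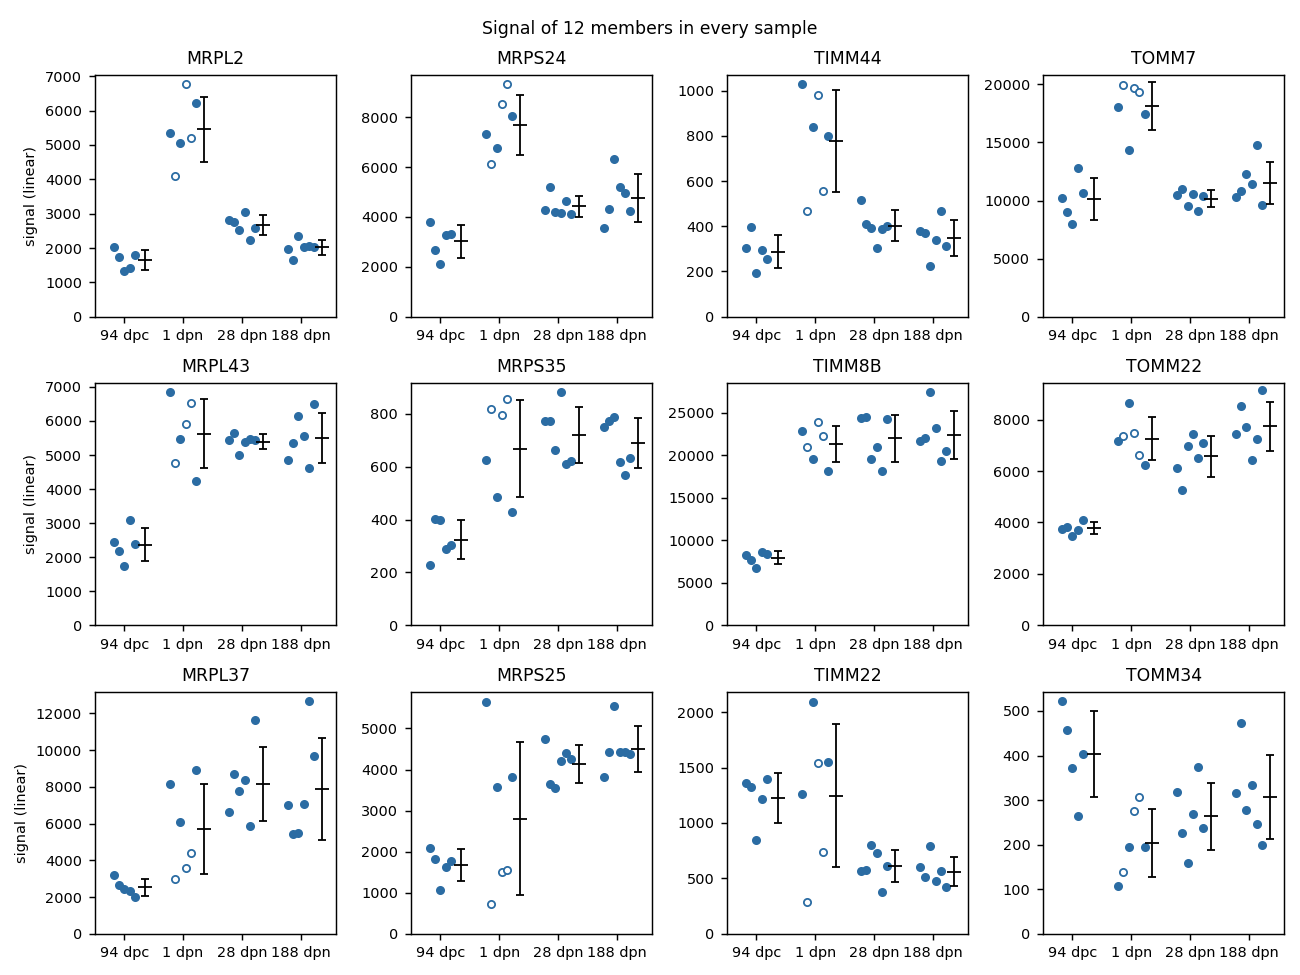
Linear signal of 12 members in every sample by stage, with the mean ± SD in black and the 1 dpn samples of low GAPDH ratio as open circles; vertical axes start at 0 and differ between genes. The top row shows MRPL2, MRPS24, TIMM44 and TOMM7, highest at 1 dpn, and the middle row MRPL43, MRPS35, TIMM8B and TOMM22, whose means at 28 and 188 dpn stay near that of 1 dpn.

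Without the 3 samples of low GAPDH ratio, 51 of 76 members rose and 1 fell (14.3% and 18.7% of all genes), and the median log2 change was 0.807. Within 1 dpn, all 3 samples of low ratio lay below all 3 others for 32 members (42.1%), against 14.2% of all genes, and above them for 5 (6.58%), against 13% of all genes. The median difference, low-ratio minus other samples, was -0.393 for members and 0.0156 for all genes. At least 2-fold lower were 18 members (23.7%), against 9.28% of all genes. With 3 samples on each side these are values and not tests. The hepatocyte markers separated the same samples and were higher in those of low ratio, with summed signals of 23044, 21857 and 18765 in them and 9215, 4930.5 and 9429 in the other 1 dpn samples. Their part in the difference was not tested.

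MRPL14 shows the pattern at a bright probe set. Its samples of low ratio had 1026, 1028 and 1106.5, and its other 1 dpn samples 5642, 5208 and 5681, against 4879.5, 4609.7, 3844, 5639 and 4712 at 94 dpc. With all samples its change was -0.96 ± 0.41 (adjusted p = 0.088), and without the 3 it was 0.23 ± 0.21 (adjusted p = 0.49). MRPS34 had 490.3, 622 and 597 in the samples of low ratio, 1974, 2724 and 3219.9 in the other 1 dpn samples and 1303, 1193, 1066, 1292 and 1292 at 94 dpc. It stood at -0.01 ± 0.37 (adjusted p = 0.99) with all samples and at 1.07 ± 0.18 (adjusted p = 0.00023) without the 3. MRPS25 likewise stood at 0.45 ± 0.35 (adjusted p = 0.38) with all and 1.37 ± 0.21 (adjusted p = 9.7e-05) without them, and TIMM50 at -0.43 ± 0.40 (adjusted p = 0.48) and 0.77 ± 0.17 (adjusted p = 0.0024). MRPL18 changed sides, at -0.28 ± 0.44 (adjusted p = 0.7) with all samples and 0.95 ± 0.24 (adjusted p = 0.0065) without the 3. These values belong to the probe set used. With all samples, the second MRPL18 probe set rose (0.98, adjusted p = 0.0016), at a mean signal of 1011 beside 1616. The second TIMM50 probe set changed by 0.56 in the same fit (adjusted p = 0.067), at 1258 beside 1455. The receptor TOMM70, which takes in carrier precursors, was dim, with 12.8, 70.05 and 5.1 in the samples of low ratio and 320.8, 338.9 and 178.4 in the others, against 263, 301, 326, 177 and 204 at 94 dpc. It was not called with all samples (-1.35 ± 0.54, adjusted p = 0.066) or without the 3 (0.11 ± 0.27, adjusted p = 0.81). The 5 members whose samples of low ratio all lay above the others were MRPL50, MRPL52, MRPS2, MRPS35 and TOMM7. MRPL50 had 585, 937 and 811.5 in the samples of low ratio and 380.5, 537 and 320.9 in the others. It was called with all samples (0.79 ± 0.24, adjusted p = 0.016) and not without the 3 (0.34 ± 0.23, adjusted p = 0.3).

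**Figure D5:**
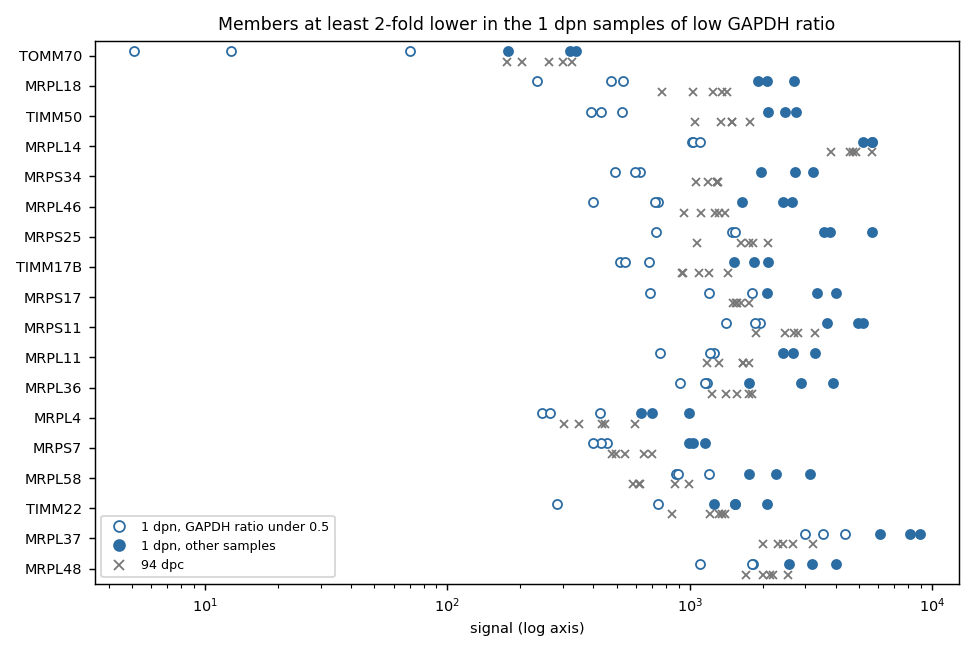
Signal (log axis) of the 18 members that were at least 2-fold lower in the 1 dpn samples of low GAPDH ratio (open circles) than in the other 1 dpn samples (filled circles), with the 94 dpc samples as crosses. For 17 of the 18 genes the open circles all lie left of the filled ones; TIMM22 overlaps.

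The comparison of 28 dpn with 1 dpn follows the members through early postnatal life. Fewer members moved, and most that did were lower at 28 dpn: 14 of 76 fell, 1 rose and 61 did not pass, where 10.6% of all genes fell and 13.5% rose. The median log2 change was -0.0797 for members and 0.0254 for all genes. All 28 dpn samples lay below all 1 dpn samples for 12 members (4.42% of all genes) and above them for 0 (5.96%). By family, 8 MRPL, 3 MRPS, 2 TIMM and 1 TOMM genes fell. Without the 3 samples of low GAPDH ratio, 25 fell and 0 rose (9.08% and 10.4% of all genes), and the median was -0.315. This comparison shares its 1 dpn samples with the one before, so their values are not independent. Of other markers, 5 of 9 endothelial genes rose, with sums of 6954 to 10050 at 28 dpn and 4012 to 6086 at 1 dpn, as did 4 of 7 macrophage genes, with sums of 4565 to 13050 at 28 dpn and 1253 to 4395 at 1 dpn, and 6 of 15 muscle markers. Their part in the result was not tested.

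MRPL2 fell the most, with 2242 to 3062 (median 2680.1) at 28 dpn, against 4088 to 6779.8 (median 5282) at 1 dpn. The 2 stages did not overlap (-1.02 ± 0.15 on the log2 scale, 2.02-fold lower, adjusted p = 7.5e-05). MRPL32 had 561 to 890 (median 676) at 28 dpn and 1082 to 1697 (median 1268) at 1 dpn, without overlap (-0.91 ± 0.17 on the log2 scale, 1.88-fold lower, adjusted p = 0.00074). MRPL33, a small protein that has a bacterial counterpart, had 2087 to 2510 (median 2305) at 28 dpn and 2775 to 4445 (median 3588) at 1 dpn (-0.64 ± 0.15 on the log2 scale, 1.55-fold lower, adjusted p = 0.0052). Of the small subunit, MRPS24 had 4114 to 5215 (median 4236) at 28 dpn and 6107 to 9347 (median 7686) at 1 dpn, without overlap (-0.78 ± 0.17 on the log2 scale, 1.72-fold lower, adjusted p = 0.0025). MRPS21 had 6624 to 9015 (median 7832) at 28 dpn and 10704 to 15467 (median 13639) at 1 dpn, also apart (-0.74 ± 0.15 on the log2 scale, 1.67-fold lower, adjusted p = 0.001). MRPL10 (-0.61 ± 0.16, adjusted p = 0.0082), MRPL28 (-0.62 ± 0.20, adjusted p = 0.031), MRPL38 (-0.62 ± 0.17, adjusted p = 0.012), MRPS28 (-0.60 ± 0.17, adjusted p = 0.017), MRPL35 (-0.54 ± 0.16, adjusted p = 0.026) and MRPL17 (-0.58 ± 0.17, adjusted p = 0.023) fell too. MRPL17 lost this call without 1 dpn replicate 3 (adjusted p = 0.0554) or 28 dpn replicate 1 (adjusted p = 0.0519) and with only these stages in the fit (adjusted p = 0.0855).

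TIMM44 fell to 302 to 518 (median 397) at 28 dpn, against 465 to 1029.5 (median 821) at 1 dpn. The ranges overlapped through 1 newborn sample of low GAPDH ratio and 1 sample of 28 dpn (-0.89 ± 0.22 on the log2 scale, 1.85-fold lower, adjusted p = 0.0057). TIMM10 had 2799 to 3391 (median 2949.9) at 28 dpn and 3662 to 6668 (median 4745) at 1 dpn, without overlap (-0.69 ± 0.18 on the log2 scale, 1.62-fold lower, adjusted p = 0.0077). TOMM7 had 9065 to 10962 (median 10464) at 28 dpn and 14380 to 19979 (median 18703) at 1 dpn, clearly apart (-0.83 ± 0.15 on the log2 scale, 1.78-fold lower, adjusted p = 0.00044). Other members that had risen at birth showed little difference here. TIMM8B had 18153 to 24520 (median 22606) at 28 dpn and 18160 to 23850 (median 21642) at 1 dpn, nearly the same range, and a change of 0.04 ± 0.14 (adjusted p = 0.88). MRPL43 stood at -0.04 ± 0.16 (adjusted p = 0.9), MRPL40 at 0.01 ± 0.14 (adjusted p = 0.99) and TOMM22 at -0.14 ± 0.14 (adjusted p = 0.54), none of which passed.

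MRPS14 was the 1 member that rose, with 1464 to 2056 (median 1642) at 28 dpn and 663 to 1882 (median 1108) at 1 dpn. The ranges overlapped (0.62 ± 0.21 on the log2 scale, 1.54-fold higher, adjusted p = 0.042). When the 3 samples of low GAPDH ratio were left out, its change was 0.15 ± 0.18 (adjusted p = 0.66), and it lost the call when any 1 of 8 samples was left out (adjusted p up to 0.114, without 1 dpn replicate 4). TIMM22 was not called with all samples (-0.81 ± 0.33, adjusted p = 0.1) and fell without the 3 (-1.40 ± 0.24, adjusted p = 0.00076).

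The comparison of 188 dpn with 28 dpn follows later growth. Of 76 members, 7 fell, 1 rose and 68 did not pass, where 12.5% of all genes fell and 5.78% rose. The 9.21% of members that fell is below the share of all genes, and the median log2 change of -0.0702 is close to the -0.0597 of all genes. All 188 dpn samples lay below all 28 dpn samples for 9 members and above them for 4, against 9.56% and 6.27% of all genes. Those that fell were 6 large-subunit genes and MRPS27, and no TIMM or TOMM gene passed. With each array centred on its median the split was 2 rises and 2 falls, given without the shares of all genes at that setting. Leaving the 3 samples of low GAPDH ratio out of the fit, although neither stage mean holds them, gave 5 rises and 12 falls (8.25% and 15.7% of all genes). Markers of other cells fell as well, 6 of 9 endothelial genes with sums of 3134 to 4570 at 188 dpn and 6954 to 10050 at 28 dpn, 4 of 7 macrophage genes with sums of 1426 to 3046 at 188 dpn and 4565 to 13050 at 28 dpn, 3 of 9 fibroblast and matrix genes and 3 of 6 erythroid genes. Their part in the result was not tested.

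MRPL39, a large-subunit protein of mitochondria alone, had 756 to 1270.4 (median 1038) at 188 dpn, against 1470.5 to 1882 (median 1696) at 28 dpn. The stages did not overlap (-0.72 ± 0.17 on the log2 scale, 1.65-fold lower, adjusted p = 0.0047). MRPL30 had 2268 to 2582 (median 2480.2) at 188 dpn and 3358 to 4129 (median 3699) at 28 dpn, without overlap (-0.59 ± 0.15 on the log2 scale, 1.51-fold lower, adjusted p = 0.01). MRPL1, part of the stalk through which the used tRNA leaves, had 380.4 to 668 (median 563) at 188 dpn and 768 to 994 (median 841) at 28 dpn, also without overlap (-0.65 ± 0.20 on the log2 scale, 1.57-fold lower, adjusted p = 0.032). MRPL50, the dimmest MRPL probe set, had 226 to 372 (median 296) at 188 dpn and 364 to 653 (median 519) at 28 dpn, with an overlap (-0.75 ± 0.23 on the log2 scale, 1.68-fold lower, adjusted p = 0.029). MRPL3, near the peptidyl transferase centre, stood at -0.48 ± 0.16 (adjusted p = 0.046), MRPL35 at -0.50 ± 0.16 (adjusted p = 0.046) and MRPS27 at -0.46 ± 0.15 (adjusted p = 0.048).

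MRPL28 was the member that rose, with 3646 to 6266 (median 4756) at 188 dpn and 2704 to 3252 (median 2934) at 28 dpn. Every 188 dpn sample lay above every 28 dpn sample (0.66 ± 0.20 on the log2 scale, 1.58-fold higher, adjusted p = 0.027). Its call was lost when any 1 of 5 samples was left out (adjusted p up to 0.0721, without 188 dpn replicate 3). Of the 8 calls in this comparison, 6 were lost on leaving out some single sample, and the ones kept were those of MRPL39 and MRPL30.

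The comparison of 188 dpn with 94 dpc spans the series and holds no 1 dpn sample among its means. Members were again higher at the later stage: 29 of 76 rose, 1 fell and 46 did not pass, where 19.5% of all genes rose and 27.4% fell. The median log2 change was 0.301 for members and -0.0763 for all genes. All 188 dpn samples lay above all 94 dpc samples for 30 members and below them for 1, against 16.9% and 23.1% of all genes. By family, 16 MRPL, 8 MRPS, 4 TIMM and 1 TOMM genes rose, and TIMM22 fell. Muscle markers rose for 13 of 15 genes, with sums of 865300 to 1102000 at 188 dpn and 397100 to 469600 at 94 dpc. Under quantile normalization 6 muscle markers rose, given without the share of all genes at that setting. Of fibroblast and matrix markers 8 of 9 fell, with sums of 14940 to 22430 at 188 dpn and 65230 to 87660 at 94 dpc. The part of all these markers in the result was not tested. The fit takes its spread from all stages, and without the 3 samples of low GAPDH ratio 34 members rose and 2 fell (21.7% and 29.5% of all genes).

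MRPL37, a large-subunit protein without a bacterial counterpart, changed the most. It had 5419.7 to 12659 (median 7054) at 188 dpn, against 3227, 2669, 2431, 2311 and 2014 at 94 dpc, without overlap (1.58 ± 0.28 on the log2 scale, 3-fold higher, adjusted p = 7.1e-05). TIMM8B had 19301 to 27449 (median 21830) at 188 dpn and 8238, 7669, 6757, 8605 and 8423 at 94 dpc, far apart (1.49 ± 0.15 on the log2 scale, 2.81-fold higher, adjusted p = 2.7e-08). MRPS25 had 3826 to 5556 (median 4419.8) at 188 dpn and 2098, 1826, 1068, 1634 and 1761 at 94 dpc, without overlap (1.44 ± 0.35 on the log2 scale, 2.72-fold higher, adjusted p = 0.0019). MRPL43 had 4622 to 6511 (median 5446) at 188 dpn and 2440.5, 2169, 1746, 3103 and 2375 at 94 dpc, again without overlap (1.23 ± 0.17 on the log2 scale, 2.34-fold higher, adjusted p = 2.7e-06). MRPL51 (1.15 ± 0.20, adjusted p = 6.3e-05), MRPL28 (1.15 ± 0.21, adjusted p = 9.8e-05), MRPS35 (1.07 ± 0.20, adjusted p = 0.00015) and MRPS34 (1.07 ± 0.37, adjusted p = 0.025) completed the 8 largest rises. MRPS34 lost its call without 94 dpc replicate 3 (adjusted p = 0.0545).

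TOMM22 had 6443 to 9138 (median 7567) at 188 dpn and 3759, 3830.5, 3469, 3704 and 4094 at 94 dpc, without overlap (1.03 ± 0.15 on the log2 scale, 2.04-fold higher, adjusted p = 4.7e-06). TIMM10 (0.76 ± 0.18, adjusted p = 0.0019), TIMM17B (0.86 ± 0.30, adjusted p = 0.025) and TIMM8A (0.66 ± 0.23, adjusted p = 0.026) rose in the inner-membrane family. TIMM17B lost its call without 94 dpc replicate 3 (adjusted p = 0.06) or replicate 5 (adjusted p = 0.0586), and TIMM8A without 94 dpc replicate 1 (adjusted p = 0.0663) or replicate 3 (adjusted p = 0.0551). TIMM22 fell, with 421 to 791 (median 538) at 188 dpn and 1360.5, 1320.3, 844, 1215 and 1394 at 94 dpc. Every 188 dpn sample lay below every 94 dpc sample (-1.11 ± 0.35 on the log2 scale, 2.17-fold lower, adjusted p = 0.013), and the call was lost with arrays centred on their median (-0.8213, adjusted p = 0.0702). TOMM70 had 419.9 to 611 (median 519) at 188 dpn and 263, 301, 326, 177 and 204 at 94 dpc, without overlap but also without a call (1.02 ± 0.54 on the log2 scale, 2.02-fold higher, adjusted p = 0.15). Fitted without those 3 newborn samples, its change was 1.02 ± 0.22 (adjusted p = 0.00091).

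Several members that were high at 1 dpn stood near the fetal level at 188 dpn. MRPL2 had a mean of 2022 ± 222 at 188 dpn, against 1655 ± 282 at 94 dpc (SD, n = 6 and 5; 0.30 ± 0.16, adjusted p = 0.17). MRPL32 had 597 ± 123 at 188 dpn and 588 ± 87.7 at 94 dpc (0.01 ± 0.18, adjusted p = 0.97), TIMM44 349 ± 80.2 and 288 ± 74 (0.27 ± 0.23, adjusted p = 0.39), and TOMM7 11537 ± 1819 and 10137 ± 1801 (0.19 ± 0.16, adjusted p = 0.38). None of these 4 passed.

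Across the 4 stages, the range of stage means on the log2 scale was widest for TOMM70, MRPL2, MRPL37, MRPL38 and TIMM8B, and narrowest for MRPS5 (0.16), MRPS9 (0.26), MRPS7 (0.29), MRPS30 (0.36) and MRPL11 (0.36). The lowest stage mean of TOMM70 was at 1 dpn. Its signals there were 12.8, 70.05 and 5.1 in the samples of low GAPDH ratio and 320.8, 338.9 and 178.4 in the others. These ranges hold for the probe set used, and a further MRPS9 probe set fell at 1 dpn against 94 dpc (-1.20, adjusted p = 0.031). MRPS5 had means of 649 ± 54.2 at 94 dpc and 765 ± 271 at 1 dpn, followed by 696 ± 154 at 28 dpn and 655 ± 115 at 188 dpn (SD, n = 5, 6, 6 and 6). Its largest change was 0.16 ± 0.22. Members called in none of the 4 comparisons numbered 25: MRPL4, MRPL11, MRPL14, MRPL16, MRPL18, MRPL36, MRPL46 and MRPL54; MRPS5, MRPS7, MRPS9, MRPS10, MRPS11, MRPS17, MRPS22, MRPS23, MRPS30 and MRPS36; TIMM9, TIMM10B, TIMM21 and TIMM50; and TOMM20, TOMM40L and TOMM70. The list holds for the probe set used and for the fit with all samples. Without the 3 samples of low GAPDH ratio some of these genes were called. Among them, MRPL18 and TIMM50 were then higher at 1 dpn against 94 dpc, and TOMM70 at 188 dpn against 94 dpc. Further probe sets of MRPL18 and MRPL46 were called higher at 1 dpn and at 188 dpn against 94 dpc. One of MRPS9 was called lower at 1 dpn against 94 dpc. A missing call does not show that a gene stayed the same. MRPS36, for example, stood at 0.81 ± 0.29 (adjusted p = 0.061) at 28 dpn against 1 dpn, and is now known as a subunit of the 2-oxoglutarate dehydrogenase complex despite its name.

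Other probe sets of the same genes did not always follow. Called members had 14 further probe sets in the comparison of 1 dpn with 94 dpc. Of these, 1 was called the same way, 0 the opposite way, 4 had the same sign without a call and 9 the opposite sign without a call. For 28 dpn with 1 dpn, 8 further probe sets divided into 1, 0, 4 and 3, for 188 dpn with 28 dpn 4 into 0, 0, 3 and 1, and for 188 dpn with 94 dpc 6 into 2, 1, 2 and 1. Members not called at 1 dpn against 94 dpc also had further probe sets that were called there. Those of MRPL15 (1.81, adjusted p = 0.00054), MRPL18 (0.98, adjusted p = 0.0016) and MRPL46 (0.64, adjusted p = 0.035) rose. Those of MRPL3 (-1.42, adjusted p = 0.024) and MRPS9 (-1.20, adjusted p = 0.031) fell. The same MRPL3 probe set, at a mean signal of 1295 beside 2603, rose at 28 dpn against 1 dpn (1.47, adjusted p = 0.022). The MRPL3 probe set used was not called there. The second MRPL2 probe set, with a mean signal of 2277 beside 3005 for the one used, changed by 0.41 at 1 dpn against 94 dpc (adjusted p = 0.42), against 1.71 for the one used. The second MRPL43 probe set, at 1637 beside 4826, changed by -0.31 in that comparison (adjusted p = 0.61) and by 1.01 at 188 dpn against 94 dpc (adjusted p = 0.042). That of MRPL38 was dim, at 80.2 beside 1670, and changed by -0.02 (adjusted p = 0.98). The second MRPL32 probe set, at 308 beside 821.5, changed by -0.16 at 1 dpn against 94 dpc (adjusted p = 0.67). At 28 dpn against 1 dpn it changed by 0.14 (adjusted p = 0.73). MRPL33 was the member whose 2 probe sets were called in opposite directions, at 188 dpn against 94 dpc, at 0.56 ± 0.16 for the one used and -1.42 (adjusted p = 0.0011) for the other, at a mean signal of 355.6. With the mean of a gene's probe sets in place of the brightest, MRPL43 (adjusted p = 0.106) and TIMM44 (0.148) lost their calls at 1 dpn against 94 dpc, and MRPL2 (0.0529), MRPL33 (0.0699) and MRPL38 (0.688) theirs at 28 dpn against 1 dpn. MRPL35 (0.764) and MRPL3 (0.472) lost theirs at 188 dpn against 28 dpn.

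Genes that work with the members are given by list, to be read against the shares of all genes above (13.7% higher and 19.4% lower at 1 dpn against 94 dpc, 13.5% and 10.6% at 28 dpn against 1 dpn, 5.78% and 12.5% at 188 dpn against 28 dpn, 19.5% and 27.4% at 188 dpn against 94 dpc). Of 32 listed translation factors and ribosomal proteins without the MRP prefixes, 21 were measured. At 1 dpn against 94 dpc, 10 rose and 0 fell. TSFM, the exchange factor of mitochondrial elongation, had 3434 ± 856 at 1 dpn and 888 ± 80 at 94 dpc (SD, n = 6 and 5; 1.90 ± 0.18 on the log2 scale, 3.73-fold higher, adjusted p = 9.6e-08). Its partner TUFM, the elongation factor that brings tRNA to the ribosome (1.41 ± 0.25, adjusted p = 0.0002), OXA1L, which inserts the new proteins into the inner membrane (1.30 ± 0.19, adjusted p = 1.7e-05), and MTG1, a GTPase of large-subunit assembly (1.25 ± 0.18, adjusted p = 2.1e-05), rose too. At 28 dpn against 1 dpn, 1 of the 21 rose and 5 fell, among them LETM1 (-1.25 ± 0.23, adjusted p = 0.00048), TSFM (-1.12 ± 0.17, adjusted p = 8.1e-05), OXA1L (-0.90 ± 0.18, adjusted p = 0.001) and TUFM (-0.70 ± 0.24, adjusted p = 0.046). DAP3, a small-subunit protein, was the one that rose (0.63 ± 0.20, adjusted p = 0.028). Between 188 and 28 dpn none of the 21 passed at an adjusted p under 0.05, and 5 had an unadjusted p under 0.05. At 188 dpn against 94 dpc, 8 rose and 1 fell, including MTRF1, a release factor homologue (0.99 ± 0.26, adjusted p = 0.0034), GADD45GIP1, a large-subunit protein (0.99 ± 0.23, adjusted p = 0.0013), and MALSU1, an assembly factor (0.93 ± 0.20, adjusted p = 0.00072). DHX30, an RNA helicase, was the one that fell (-1.11 ± 0.19, adjusted p = 5.4e-05).

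Of 20 listed aminoacyl-tRNA synthetases and related enzymes of mitochondria, 9 were measured. At 1 dpn against 94 dpc, 3 rose and 0 fell: FARS2 (1.55 ± 0.21, adjusted p = 7.2e-06), QRSL1, a subunit of the amidotransferase for glutaminyl-tRNA (1.33 ± 0.22, adjusted p = 0.0001), and VARS2 (0.73 ± 0.26, adjusted p = 0.043). At 28 dpn against 1 dpn, FARS2 (-0.98 ± 0.20, adjusted p = 0.0012) and EARS2 (-0.84 ± 0.21, adjusted p = 0.0066) fell. QRSL1 also rose at 188 dpn against 94 dpc (0.65 ± 0.22, adjusted p = 0.025), and at 188 dpn against 28 dpn 0 passed and 1 had an unadjusted p under 0.05.

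Of 28 listed partners of import, 16 were measured, and 9 rose and 0 fell at 1 dpn against 94 dpc. HSPA9, the Hsp70 of the matrix that pulls precursors in, changed by 1.49 ± 0.19 (adjusted p = 3.4e-06), MIPEP, a peptidase that trims imported proteins, by 1.16 ± 0.23 (adjusted p = 0.00065), DNAJC19, a co-chaperone of the import motor, by 0.96 ± 0.20 (adjusted p = 0.00083) and the chaperonin HSPD1 by 0.94 ± 0.30 (adjusted p = 0.021). At 28 dpn against 1 dpn, 5 fell and 1 rose. HSPE1, the co-chaperonin of HSPD1, fell the most (-1.21 ± 0.17, adjusted p = 3.2e-05), followed by MIPEP (-0.97 ± 0.22, adjusted p = 0.0037), and YME1L1, a protease of the inner membrane, rose (1.45 ± 0.18, adjusted p = 7e-06). In the comparison of 188 with 28 dpn, MIPEP (-1.23 ± 0.22, adjusted p = 0.00054) and DNAJC19 (-0.63 ± 0.19, adjusted p = 0.026) fell and 0 rose. At 188 dpn against 94 dpc, 5 rose and 2 fell. YME1L1 (1.29 ± 0.19, adjusted p = 6.7e-06) and ROMO1 (1.09 ± 0.17, adjusted p = 1.7e-05) led the rises, and AGK, a subunit of the TIM22 complex in human cells, fell (-1.32 ± 0.32, adjusted p = 0.0023), as did MIPEP (-1.04 ± 0.23, adjusted p = 0.001). AGK and TIMM22 both fell in this comparison, as did 27.4% of all genes. TIMM22 lost its call with arrays centred on their median (adjusted p = 0.0702). A joint change of the 2 genes was not tested.

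Regulators of mitochondrial biogenesis showed few calls. Of 21 listed, 9 were measured. At 1 dpn against 94 dpc 0 passed, with 2 at an unadjusted p under 0.05. PPRC1, a coactivator related to PGC-1, fell at 28 dpn against 1 dpn (-1.15 ± 0.23, adjusted p = 0.0013) and at 188 dpn against 94 dpc (-1.21 ± 0.24, adjusted p = 0.00034). MYC fell at 188 dpn against 28 dpn (-1.05 ± 0.30, adjusted p = 0.019) and against 94 dpc (-2.12 ± 0.31, adjusted p = 7.8e-06).

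Other gene groups were compared at 1 dpn with 94 dpc. Of 65 respiratory chain and ATP synthase genes, 55 rose and 0 fell, with a median log2 change of 1.03, and of 58 cytosolic ribosomal protein genes, 8 rose and 1 fell, with a median of 0.235. The cytosolic ribosome turned with the scaling, to 0 rises, 16 falls and a median of -0.182 under quantile normalization and to 31 rises, 0 falls and 0.508 with arrays centred on their median, where the respiratory chain had 44 and 57 rises. At 188 dpn against 94 dpc, the medians were 0.301 for the members, 0.505 for the respiratory chain (33 rose, 3 fell) and -0.0668 for the cytosolic ribosome (2 rose, 9 fell). Under quantile normalization they were 0.384 for the members, 0.0462 for the respiratory chain (20 rose, 7 fell) and -0.429 for the cytosolic ribosome (0 rose, 36 fell), and with arrays centred on their median 0.595, 0.799 (45 rose, 3 fell) and 0.226 (16 rose, 3 fell), so the order of the members and the respiratory chain depends on the scaling. Enzymes and carriers of the mitochondrial matrix and membranes, of which 24 of 26 listed were measured, numbered 17 rises and 0 falls at 1 dpn against 94 dpc, among them IDH3A (1.90 ± 0.22, adjusted p = 1.6e-06) and MDH2 (1.75 ± 0.18, adjusted p = 3.6e-07) of the citric acid cycle. Counts of these groups under quantile normalization or with centred arrays stand without the shares of all genes at those settings. The differences between these groups were not tested.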

How the data were processed

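Total RNA of 23 samples labelled liver was made into biotin-labelled cRNA and hybridised to a porcine Affymetrix array, per the labels' protocols. The deposited table holds linear intensities of 24123 probe sets on each array. The submitters' processing notes name GCOS 1.1.1, and how signals were summarised and corrected for background is not given in the sources used here. The trimmed mean was 500.1 to 500.2 on every array, as after scaling to one target. Such scaling lets a shift of many transcripts move all others of an array. No detection calls were used, and precision is limited by how many arrays there are.

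The stage of each sample came from its labelled ontogenetic stage, and replicate numbers follow accession order. GEO's platform annotation gave 1 symbol to 10069 tested probe sets, several to 198 and none to the rest. The 124 control probe sets were left out. Log2(signal + 16) was fitted with limma 3.58.1 (lmFit, eBayes) in R 4.3.3 with 1 mean per stage over all 23 arrays, and two-sided p-values were adjusted over 23999 probe sets by the method of Benjamini and Hochberg. The stages were compared in 4 pairs. The fit was tested on simulated data.

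Members, lists and tests were chosen with earlier results of these data known, so no pattern is independent support. Named members were, per comparison, up to 8 largest called rises and 8 falls and every called TIMM or TOMM gene, with the brightest and dimmest probe set per family, the 5 widest and 5 narrowest ranges of stage means, genes with probe sets called in opposite directions and up to 4 genes per pathway list. Further members were named after their values were seen, and not all 76 are named. Alternatives were quantile normalization, centring on the array median, no dim probe sets, pseudocounts of 1 and 64, only the stages compared, trend and robust eBayes, array weights, the mean of a gene's probe sets, leaving out each sample, and omitting the 1 dpn samples in which the GAPDH ratio was low, which was added after seeing the data. The probe sets with several symbols that carry a member prefix, 6 in number, were not used. No sequences are shown and the planned promoter search was not run.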

Additional observations from a re-analysis of the deposited data

Results flagged for a closer look

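Of 160 groups of samples examined (the 4 stages of each named member and of the median over all members), 5 held a sample whose gap to its nearest neighbour took a large part of the group's range on the log2 scale (Dixon's ratio). Chance flags about 1 in 20 such groups. MRPL38 had 1370.5 in 28 dpn replicate 4, against 1594 or more in the other 5 samples of 28 dpn (ratio 0.642). MRPS30, the dimmest MRPS probe set, had 323 in 28 dpn replicate 1, with the next sample at 259 (0.688), and 113 in 188 dpn replicate 6, with the next at 203 (0.84). MRPS9 had 417 in 94 dpc replicate 2, with the next sample at 583 (0.779). TIMM22 had 844 in 94 dpc replicate 3, with the next at 1215 (0.725).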

How the results depend on the processing

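No paired analysis was possible because the labels give no replicate number, dam or litter that groups share. Replicate error here is the spread between offspring of few dams. Centring each array on its median shifted the median change of all probe sets (log2) at 1 dpn against 94 dpc to 0.165, from -0.108 as deposited, and at 188 dpn against 94 dpc to 0.217, from -0.0766. The members' medians then stood at 0.7253 and 0.5946, with 47 and 41 rises and 0 and 0 falls, and at 28 dpn against 1 dpn 0 rose, and at 188 dpn against 28 dpn 2 rose and 2 fell. Under quantile normalization, 4 fell at 188 dpn against 28 dpn and 2 at 188 dpn against 94 dpc. Counts in this paragraph stand without the shares of all genes under the same setting. They show only how the calls depend on the setting. Without the 3 samples of low GAPDH ratio, the median was 0.8071 at 1 dpn against 94 dpc and -0.3153 at 28 dpn against 1 dpn, where 0 rose and 25 fell, while 5 rose and 12 fell at 188 dpn against 28 dpn, and 2 fell at 188 dpn against 94 dpc. At 1 dpn against 94 dpc, 3 members fell without dim probe sets and 3 with array weights. At 28 dpn against 1 dpn, the 1 rise became 7 without dim probe sets, 4 with a pseudocount of 64, 4 with trend and robust options, 3 with array weights, 5 with the mean of all probe sets and 0 with only the stages compared, where 9 fell. Between 188 and 28 dpn, 2 rose without dim probe sets, with either pseudocount, with trend and robust options and with array weights, the last with 11 falls, and 6 rose and 11 fell with only the stages compared. MRPL33 at 188 dpn against 94 dpc turned to -0.4326 (adjusted p = 0.0547) with the mean of all probe sets. Leaving out 1 sample gave 32 to 39 rises, 1 to 3 falls and a median of 0.3837 to 0.5448 at 1 dpn against 94 dpc, 0 to 8 rises, 12 to 19 falls and -0.1273 to -0.0001 at 28 dpn against 1 dpn, 0 to 2 rises, 2 to 5 falls and -0.1074 to -0.0507 at 188 dpn against 28 dpn, and 24 to 28 rises, 1 fall and 0.2692 to 0.3459 at 188 dpn against 94 dpc. The 8 rises at 28 dpn against 1 dpn came without 1 dpn replicate 1 and the 0 without 1 dpn replicate 2, and the 2 falls at 188 dpn against 28 dpn without 28 dpn replicate 3. Of the named calls, 0 of 17, 2 of 11, 6 of 8 and 4 of 17 were lost on leaving out some single sample, counted for 1 dpn against 94 dpc, 28 dpn against 1 dpn, 188 dpn against 28 dpn and 188 dpn against 94 dpc. Over all alternatives, adjusted p ranged from 1.85e-05 to 0.0808 for TOMM7 and 0.00264 to 0.0728 for TOMM34 at 1 dpn against 94 dpc, 0.00667 to 0.659 for MRPS14 at 28 dpn against 1 dpn, 0.0053 to 0.0721 for MRPL28 at 188 dpn against 28 dpn, and 8.48e-06 to 0.0545 for MRPS34, 0.000101 to 0.06 for TIMM17B, 0.00205 to 0.0663 for TIMM8A and 0.000206 to 0.0702 for TIMM22 at 188 dpn against 94 dpc. MRPL17 and MRPS21 lost their calls in the last comparison under quantile normalization, and MRPL17 also without any 1 of 9 samples (adjusted p up to 0.145, without 94 dpc replicate 3). The cause of these shifts was not tested. Dim probe sets such as those of TOMM70 and MRPL50 have folds pulled toward 1 by the added 16.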

Other observations

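Carriers of the inner membrane, which reach it through the small TIM proteins and TIMM22, moved in both directions. They belong to the list of mitochondrial enzymes and carriers and were picked here after their values were seen. SLC25A4, the adenine nucleotide translocase of muscle and heart, had 48740 ± 6138 at 1 dpn and 19580 ± 1284 at 94 dpc (SD, n = 6 and 5; 1.31 ± 0.15, adjusted p = 1.2e-06), and 36210 ± 3624 at 188 dpn (0.88 ± 0.15 on the log2 scale, 1.84-fold higher, adjusted p = 4.9e-05, against 94 dpc). SLC25A6, another isoform of the same translocase, had 6461 ± 785 at 188 dpn and 35200 ± 2541 at 94 dpc (-2.45 ± 0.18 on the log2 scale, 5.46-fold lower, adjusted p = 2.6e-10), and the ranges did not overlap. Its change was -0.68 ± 0.17 (adjusted p = 0.0075) at 28 dpn against 1 dpn and -1.39 ± 0.17 (adjusted p = 8.8e-06) at 188 dpn against 28 dpn. SLC25A5 fell at 188 dpn against 94 dpc (-0.93 ± 0.29, adjusted p = 0.014) with an overlap, and the phosphate carrier SLC25A3 rose (0.79 ± 0.18, adjusted p = 0.0012) without one.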
